A study of Sus scrofa with 21 samples.

Results

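The endometrium of conceptus attachment sites on day 24 of pregnancy was compared with that of attachment sites on day 13, days that lie on either side of implantation in the pig. The comparison took in 6 of the 21 1-colour Agilent porcine arrays of the series, 3 per day, chosen by their sample titles alone, and covered all non-control probes. All animals were Large White sows. Pregnant sows had been inseminated at 2 times after heat was detected and were sampled on day 13, day 18 or day 24, with 3 sows per day, and endometrium was taken from attachment sites and from the tissue between them (inter-sites). The other group of the series, 3 non-pregnant sows given inactivated sperm and sampled on the first of these days, entered no comparison but took part in the estimate of spread, the choice of probes tested and the correlations over all arrays. Levels below are log2 processed signals of a gene's brightest probe minus the 75th percentile of the same array, so levels of different genes cannot be set against each other. Differences are day 24 minus day 13 on the log2 scale, where 1 stands for a 2-fold change.

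The pig conceptus elongates before it attaches and does not invade the uterine wall. It forms an epitheliochorial placenta, in which trophoblast lies against an intact uterine epithelium, and it lives on histotroph, the mixture of proteins and nutrients that the uterine glands secrete. Its own oestrogens, prostaglandins, cytokines and interferons act on the endometrium around it.

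On the 6 arrays, 63.2 to 72.2% of probes were well above background, and the 75th percentile of the signal lay between 421 and 587 intensity units. Levels over all tested probes correlated at 0.970 to 0.980 among the day 13 arrays, at 0.975 to 0.986 among the day 24 arrays and at 0.914 to 0.944 between the days. The libraries of a group were not equally distant from each other. At 63 probes that were either on or off in a library and that the groups explained poorly, replicates 1 and 2 of day 13 matched at 95.2% and replicates 1 and 2 of day 24 at 95.2%. Replicate 3 matched them at 76.2 and 74.6% on day 13, and at 88.9 and 87.3% on day 24. Replicates 1 and 2 of day 24 also matched replicate 1 of the day 18 attachment sites, at 90.5 and 92.1%. A high match thus also occurred between libraries of different days and need not mean a shared sow. The labels speak of 3 sows per day but do not tie libraries to sows, so p-values measure the spread between these arrays, and calls that were lost when replicates 1 and 2 of each day were averaged are named beside the results. Slide 1 held replicate 1 of both days and slide 4 replicate 2 of both days, whereas the replicates 3 lay on slides 3 and 2.

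The passage from day 13 to day 24 changed a large part of the measured transcriptome. Of 30091 probes tested with limma, 4724 (15.7%) passed an adjusted p of 0.05, 2534 of them higher on day 24 (8.42%) and 2190 lower (7.28%). Large changes were mostly rises: 842 called probes were higher by at least 2 on the log2 scale and 403 were lower by as much, and beyond 5 the counts were 134 and 10. Among the 2018 genes with a name, 401 were called (19.9%), of which 295 were higher (14.6%) and 106 lower (5.25%), and the median difference over all named genes was 0.19. The arrays of the 2 days did not overlap for 1019 named genes (50.5%). Among these were 399 of the 401 called genes, so days that do not overlap add no support to a call. Tissue was measured in bulk, so a fall cannot be told apart between fewer cells of a kind and less RNA per cell, and likewise a rise.

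The number of calls leaned on single arrays. Without day 13 replicate 2 it was 2341 probes, without day 13 replicate 3 it was 2711, without day 24 replicate 2 it was 2351 and without day 24 replicate 3 it was 2073. With replicates 1 and 2 of each day averaged it was 1868, of which 1862 were among the 4724. The split of called probes also turned with the scaling, from 2534 higher and 2190 lower to 1971 and 2609 when arrays were centred on their medians and to 2149 and 2599 after quantile normalization. Within slide 1 and within slide 4, each with 1 array per day, 400 of the 401 called genes had their overall direction, against 1460 of all 2018 genes with the same sign in both. The called genes were chosen with these same arrays, so this describes them and supports nothing. Of 95 called genes picked by the naming rule, 49 kept their call with normexp, another background correction, 55 with replicates 1 and 2 averaged, 65 with alike libraries as a random block and 79 with slide as a block. Calls lost with normexp or by averaging are given below with their adjusted p, and a call kept only without a given array was lost whenever 1 of the others was left out. Losses with alike libraries or slide as a block are given only for genes that kept their call with both normexp and averaging.

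**Figure D1:**
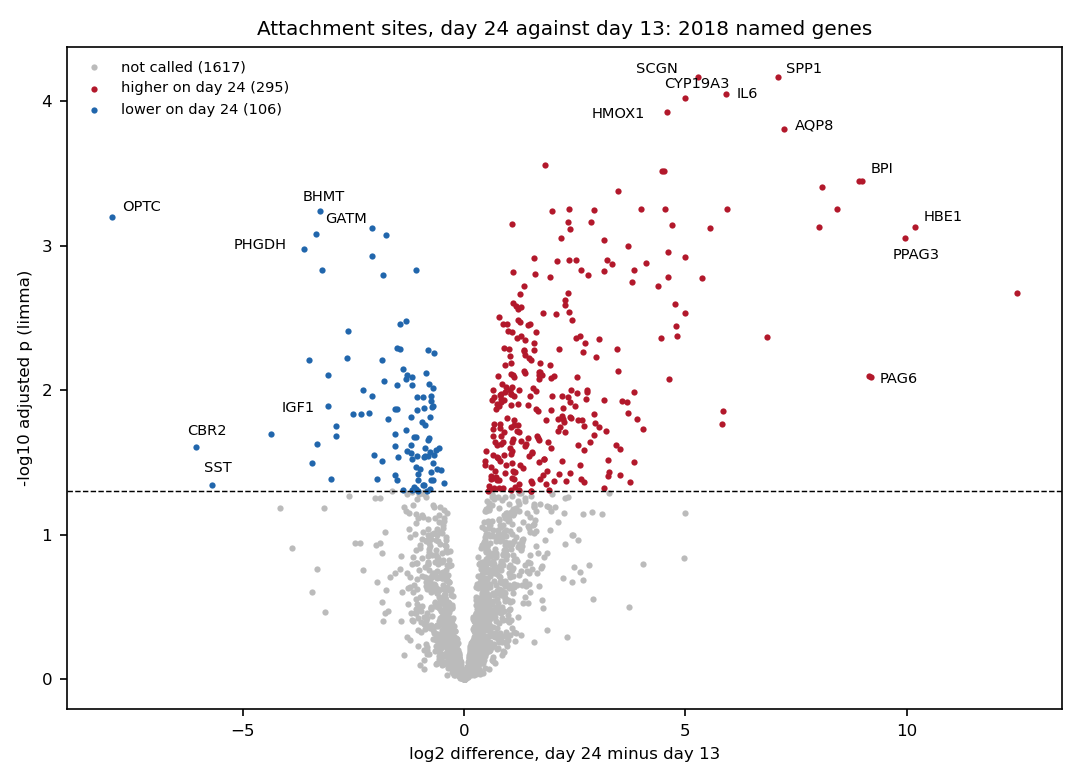
Each point is 1 of 2018 named genes, with the log2 difference between day 24 and day 13 at attachment sites on the x axis and the -log10 of the limma adjusted p on the y axis, where the dashed line marks 0.05. Red points are the 295 genes called higher, blue points the 106 called lower, and the right-hand side reaches further from 0 than the left. The point farthest to the right is OSTN.

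Genes that mark the conceptus and its blood stood at the head of the rises. HBE1, the epsilon globin of embryonic red blood cells, had levels of -3.67, -2.12 and -1.38 on the day 13 arrays and 8.52, 6.45 and 8.45 on the day 24 arrays (log2 difference 10.20, SE 1.54, adjusted p = 0.000743). PAG6, a pregnancy-associated glycoprotein secreted by trophoblast, had levels of 0.32, -1.42 and -4.08 on the day 13 arrays and 6.29, 7.93 and 8.17 on the day 24 arrays (log2 difference 9.20, SE 2.09, adjusted p = 0.00813). Both were above background on all 3 day 13 arrays, and for both the days did not overlap. PPAG3, of the same glycoprotein family, was above background on none of the day 13 arrays and had levels of 1.41, 3.26 and 3.09 on day 24, at least 288-fold higher (adjusted p = 0.000891). A bound of this kind sets the day 24 mean against the dimmest signal that still counted as above background on the day 13 arrays. AFP, the alpha-fetoprotein of yolk sac and fetal liver, rose from -3.56, -5.77 and -5.17 to -0.39, 3.11 and 3.28 (log2 difference 6.83, SE 1.38, adjusted p = 0.00427). Day 24 replicate 1 held less of it than replicates 2 and 3, but still more than any day 13 array. DPPA5, an RNA-binding protein known from pluripotent cells, rose by 8.42 from -1.13, -0.62 and -1.54 to 6.41, 7.66 and 7.89 (SE 1.2, adjusted p = 0.000556). OSTN, which encodes the small secreted protein osteocrin and is named after its values were seen, had a log2 difference of 12.49 (SE 2.24, adjusted p = 0.00212) and was above background on 1 of the 3 day 13 arrays.

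Taken as lists, the 10 tested markers of conceptus and trophoblast had a median difference of 1.06, against 0.19 over all named genes. Of them 4 were called higher (40%), against 14.6% of all named genes, and none lower. Beside PAG6 these were the transcription factors GATA3 (log2 difference 3.70, SE 0.587, adjusted p = 0.00101) and TFAP2C (log2 difference 3.69, SE 0.902, adjusted p = 0.012), both active in trophoblast, and CYP17A1, treated with the steroids below. TFAP2C lost its call without day 13 replicate 2 or day 24 replicate 3 (adjusted p up to 0.0671). The list's mean level was -0.34, -1.09 and -1.52 on the day 13 arrays and 0.73, 1.45 and 1.70 on the day 24 arrays. The 6 that were not called had differences between -0.44 for KRT8 and 1.25 for TEAD4, and 8 of the 10 were above background on all day 13 arrays. Of 7 markers of embryonic blood and yolk sac, 3 were called higher (HBE1, AFP and SERPINA1), while ALB, APOA1, TF and TTR had differences between -0.41 and 0.70. That list's mean level was -1.68, -1.65 and -1.63 on day 13 and 0.58, 2.73 and 2.43 on day 24, so replicate 1 was lowest on day 24 in both lists. How far conceptus tissue in the samples took part in the rises described below was not tested. With normexp, the call of TFAP2C was lost (adjusted p = 0.0711). Once replicates 1 and 2 were averaged, the call of TFAP2C was lost (adjusted p = 0.0525). Members called numbered 2 with normexp, against 4.

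**Figure D2:**
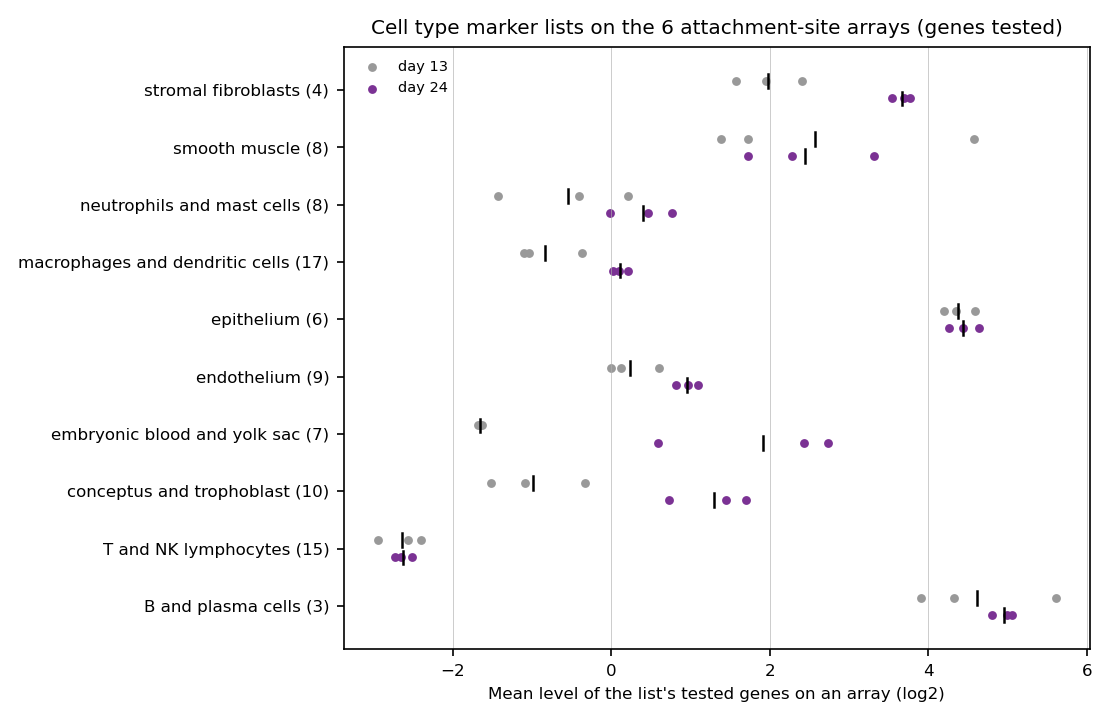
Mean level (log2, relative to each array's 75th percentile) of the tested genes of 10 cell type marker lists on the day 13 (grey) and day 24 (purple) attachment-site arrays. Points are arrays and black ticks are the means of 3 arrays. The conceptus, embryonic blood, stromal, macrophage and endothelial lists lie apart between the days. The epithelial list overlaps, and smooth muscle markers spread more within day 13 than between the days.

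Epithelial and stromal markers were detected on both days. All 6 epithelial and all 4 stromal markers tested were above background on every one of the 6 arrays. So were all 8 smooth muscle markers, so detection alone does not settle which tissue was sampled. None of the 6 epithelial markers was called: the claudin genes CLDN3 and CLDN4 had differences of -0.50 and 0.86 and the cadherin CDH1 of 0.74. Of the 4 stromal markers, THY1 rose from -2.86, -2.72 and -4.41 to 0.46, 1.54 and 1.85 (log2 difference 4.61, SE 0.798, adjusted p = 0.00164), while SPARC (1.03, adjusted p = 0.115) and DCN (0.49, adjusted p = 0.286) did not pass. Of 8 smooth muscle genes none was called, with a median of -0.15, but they marked single libraries. Their mean level was 4.58 in day 13 replicate 2 and 1.39 and 1.73 in the other day 13 arrays, against 1.73 to 3.32 on day 24, so that the list's median difference was 2.16 within slide 1 and -2.37 within slide 4. ACTA2, the smooth muscle actin, had levels of 3.94, 7.51 and 4.54 on the day 13 arrays and 6.52, 5.41 and 5.14 on the day 24 arrays, and its difference of 0.36 turned to -0.19 with slide as a block.

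Few markers of immune cells were called, where the share over all named genes was 19.9%. Of 17 macrophage and dendritic cell markers only CLEC7A, the beta-glucan receptor dectin-1, was called (log2 difference 3.25, SE 1.02, adjusted p = 0.0394), and it lost the call without any 1 of the 6 arrays (adjusted p up to 0.161). It was above background on none of the day 13 arrays and at least 4.23-fold higher on day 24. The median of the list was 1.0, and the days did not overlap for 11 of its 17 genes, all higher on day 24, where 50.5% of all named genes did not overlap. Of 15 T and NK cell markers 2 were called, both lower. The cytotoxic granule protease GZMB fell from 2.13, 2.23 and 2.20 to 0.41, 0.19 and 0.45 (log2 difference -1.84, SE 0.315, adjusted p = 0.00159), and its relative GZMH fell by 1.03 (adjusted p = 0.0498), a call kept only without day 13 replicate 3 (adjusted p up to 0.176 without another array). The list had 1 call in those cases. Of 9 endothelial markers 2 were called, both higher (22.2%, against 19.9% over all named genes), with a median of 0.76. They were SELE and ENG, which are described below. That list had 1 call without day 24 replicate 1 and none without day 13 replicate 2, day 13 replicate 3, day 24 replicate 2 or day 24 replicate 3. The 1 ciliated cell marker tested, SPAG6, had a difference of -0.63 (adjusted p = 0.535). Of 8 neutrophil and mast cell markers BPI alone was called, and S100A9, abundant in neutrophils, had levels of 4.82, 4.0 and -2.61 on the day 13 arrays and -1.89, -0.51 and -1.69 on the day 24 arrays (adjusted p = 0.251), high in day 13 replicates 1 and 2 only. The 3 B cell and plasma cell markers were not called, among them the immunoglobulin G heavy chain, listed as LOC396781 (0.42, adjusted p = 0.903). Under normexp, the calls of CLEC7A and GZMH were lost (adjusted p = 0.41 and 0.134). Averaging replicates 1 and 2 cost the calls of CLEC7A and GZMH (adjusted p = 0.152 and 0.218). The macrophages and dendritic cells list had a count of calls of 0 with normexp and 0 with replicates 1 and 2 averaged, against 1. The T and NK lymphocytes list had a count of calls of 1 with normexp and 1 with replicates 1 and 2 averaged, against 2. The endothelium list had a count of calls of 0 with normexp and 0 with replicates 1 and 2 averaged, against 2.

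Among the 18 lists of gene function, histotroph and other secreted uterine proteins had the largest share of members called higher. The lists were drawn up with earlier results of these data known, so this order is a description only. Of 32 histotroph genes tested, 12 were called higher and 1 lower (40.6%, against 19.9% over all named genes), with a median difference of 1.03. The days did not overlap for 22 that were higher and 3 that were lower, where 50.5% of all named genes did not overlap. SPP1, osteopontin, a secreted ligand of integrins at the uterine surface, had levels of 1.88, 1.25 and -0.61 on the day 13 arrays and 7.38, 8.08 and 8.33 on the day 24 arrays (log2 difference 7.09, SE 0.719, adjusted p = 6.81e-05). SLPI, a secreted inhibitor of leukocyte proteases, rose from 5.34, 5.57 and 3.66 to 9.77, 10 and 9.80 (log2 difference 5.0, SE 0.945, adjusted p = 0.00294). For both genes the day 18 arrays lay above the day 13 arrays, with SPP1 at 6.58, 5.78 and 5.32 and SLPI at 9.56, 9.89 and 7.41. PLET1, placenta-expressed transcript 1, rose from 0.40, -0.65 and -2.88 to 7.29, 8.55 and 8.46 (log2 difference 9.14, SE 2.07, adjusted p = 0.00795). Like the trophoblast gene PAG6, it declined from replicate 1 to replicate 3 on day 13 and was lowest in replicate 1 on day 24. Whether its RNA came from uterus or conceptus was not tested. CRISP3, a cysteine-rich secretory protein, and SERPINA1, the alpha-1-antitrypsin protease inhibitor, rose by 8.08 and 8.01 (adjusted p = 0.00039 and 0.000743), and each was above background on 2 of the 3 day 13 arrays. SERPINA1 was also counted above among the markers of embryonic blood and yolk sac. BPI, an antibacterial protein that binds lipopolysaccharide, was below background on all day 13 arrays and stood at -0.30, 1.61 and 2.29 on day 24, at least 110-fold higher (adjusted p = 0.00036). A further protease inhibitor outside the list, SERPINA3-2, rose from -3.31, -3.37 and -2.05 to 5.77, 5.77 and 6.48 (log2 difference 8.92, SE 1.19, adjusted p = 0.000358). ACP5, the acid phosphatase known as uteroferrin, and RBP4, the retinol carrier, 2 secretions for which the pig uterus is known, had differences of 0.24 and 0.48 and were not called (adjusted p = 0.886 and 0.834). They are named after their values were seen.

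The 1 member of that list called lower, OPTC, had the largest fall among the called genes. OPTC encodes opticin, a small leucine-rich proteoglycan of the extracellular matrix. It had levels of 0.40, 1.62 and 1.68 on day 13, and on day 24 it was above background on no array, which made it at least 85.6-fold lower (log2 difference -7.96, SE 1.17, adjusted p = 0.000631). On the day 18 arrays it had already reached -5.48, -5.05 and -7.28.

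**Figure D3:**
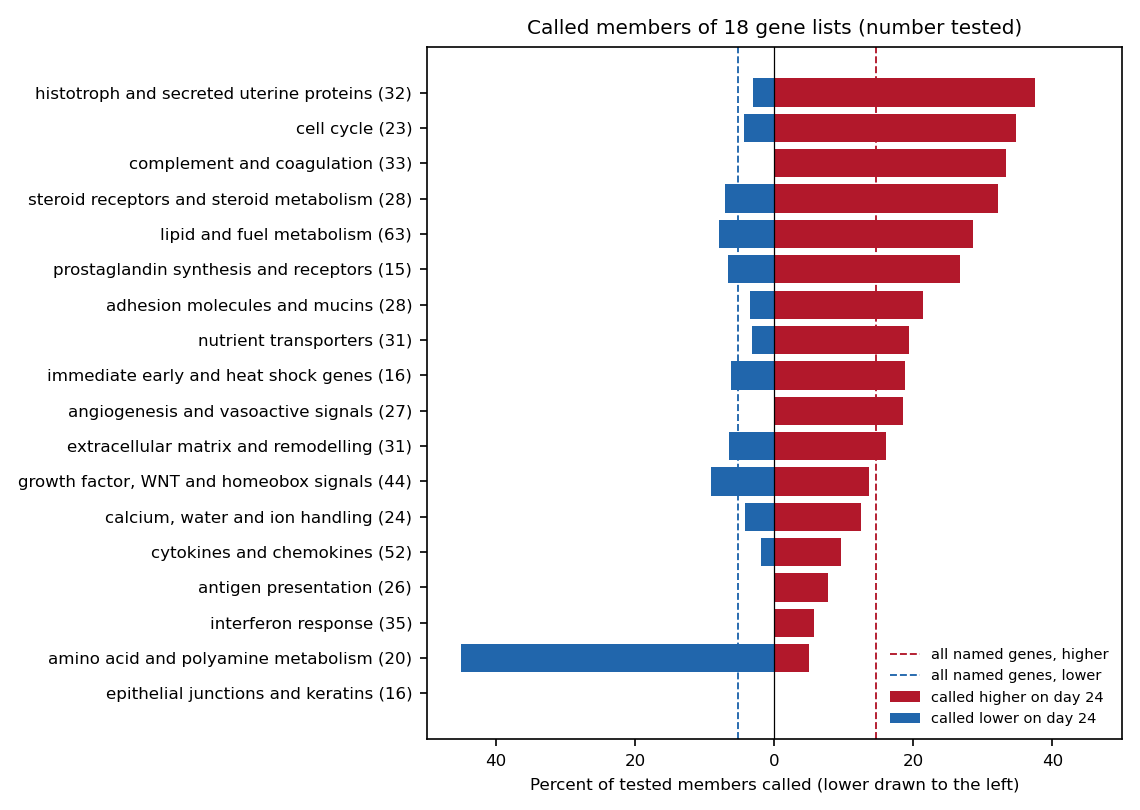
Percent of the tested members of 18 gene lists called higher (red, right) and lower (blue, left) on day 24, with the number tested in brackets. Dashed lines give the shares over all 2018 named genes, 14.6% higher and 5.25% lower. The histotroph list reaches furthest to the right, amino acid and polyamine metabolism is the 1 list mostly to the left, and no gene of the epithelial junction list was called.

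Genes for several steps between cholesterol and oestrogen rose. Of 28 genes of steroid receptors and steroid metabolism, 9 were called higher and 2 lower (39.3%, against 19.9% over all named genes). Their median difference was 0.59. STAR, which moves cholesterol into mitochondria, rose from -5.09, -5.09 and -4.58 to -2.36, -1.12 and -0.81 (log2 difference 3.49, SE 0.776, adjusted p = 0.00733). CYP17A1, which turns progestagens into androgens, rose from -6.50, -5.72 and -6.38 to -3.61, -1.81 and -1.80 (log2 difference 3.79, SE 0.665, adjusted p = 0.0018) and was above background on 1 of the day 13 arrays. CYP19A3, one of the pig's aromatases, which make oestrogens, was below background on all day 13 arrays and stood at -3.70, -2.28 and -2.38 on day 24. It was at least 6.98-fold higher (fitted difference 4.99, adjusted p = 9.54e-05). Because the pig's aromatase genes are close relatives, signal of one may reach the probe of another. HSD17B1, which converts oestrone to oestradiol, rose from -3.50, -3.55 and -3.66 to -1.66, -0.07 and 0.14 (log2 difference 3.04, SE 0.617, adjusted p = 0.00445). For STAR, CYP17A1 and HSD17B1 the days did not overlap, and day 24 replicate 1 was the lowest of its group, as it was for CYP19A3. Called members named after their values were seen included CYP11A1, which starts steroid synthesis (2.07, adjusted p = 0.00298), HSD3B1 (2.45, adjusted p = 0.00329) and HSD11B1, which regenerates cortisol (2.72, adjusted p = 0.00474). The receptors for oestrogen (ESR1, -0.64) and progesterone (PGR, -0.40) were also named after their values were seen and were not called (adjusted p = 0.314 and 0.502). After normexp, the calls of STAR, CYP17A1 and CYP19A3 were lost (adjusted p = 0.108, 0.138 and 0.212). When replicates 1 and 2 were averaged, the call of STAR was lost (adjusted p = 0.0523). Members called numbered 6 with normexp, against 11.

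Among 15 genes of prostaglandin synthesis and reception, 4 were called higher and 1 lower (33.3%, against 19.9% over all named genes). Their median difference was 1.08. AKR1B1, an aldo-keto reductase that can make prostaglandin F2alpha, rose from 1.06, 0.01 and 0.53 to 3.49, 4.45 and 5.68 (log2 difference 4.0, SE 0.568, adjusted p = 0.000556). PTGES, a prostaglandin E synthase, rose from 1.53, 2.24 and 1.08 to 3.17, 4.28 and 4.49 (log2 difference 2.37, SE 0.446, adjusted p = 0.0029). AKR1C1 had levels of -1.52, -0.06 and -0.66 on the day 13 arrays and 4.73, 4.67 and 5.92 on the day 24 arrays (log2 difference 5.85, SE 1.47, adjusted p = 0.0139). It lost its call without day 24 replicate 3 (adjusted p = 0.0618), without which 3 members of the list were called. LOC733635, its neighbour in the reference annotation, had nearly the same levels on every array (difference 5.82, adjusted p = 0.0172), so the 2 probes may share signal and are not separate evidence. LOC733635 lost its call without day 13 replicate 1 or day 24 replicate 3 (adjusted p up to 0.0730). CBR1, a carbonyl reductase that acts on prostaglandin E2, rose by 2.34 (adjusted p = 0.000692), whereas CBR2, of the same enzyme class, fell from 2.66, 3.79 and 2.57 to -2.23, -2.83 and -4.12 (log2 difference -6.07, SE 1.72, adjusted p = 0.0249). The call of CBR2 was kept only without day 24 replicate 1, with an adjusted p up to 0.0969 when another array was left out. The days did not overlap for CBR2, as for nearly all called genes. PTGS2, the inducible cyclooxygenase, named after its values were seen, had a difference of 0.65 (adjusted p = 0.71). Once replicates 1 and 2 were averaged, the calls of AKR1C1, LOC733635 and CBR2 were lost (adjusted p = 0.0761, 0.0872 and 0.119). Members called numbered 3 with replicates 1 and 2 averaged, against 5.

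Of 52 cytokine and chemokine genes 5 were called higher and 1 lower (11.5%, against 19.9% over all named genes), with a median of 0.48. IL6, the inflammatory cytokine interleukin-6, had levels of -2.63, -2.45 and -3.93 on the day 13 arrays and 2.59, 2.61 and 3.55 on the day 24 arrays (log2 difference 5.92, SE 0.618, adjusted p = 8.93e-05), and its 3 probes were all called higher. SOCS3, a feedback inhibitor that interleukin-6 signalling induces, rose from -4.93, -5.18 and -5.18 to -1.83, -2.44 and -2.43 (log2 difference 2.86, SE 0.425, adjusted p = 0.000692). On day 13 it was above background on 2 of the 3 arrays. IL1B rose by 2.02 (adjusted p = 0.0424), a call kept only without day 13 replicate 3 (up to 0.154 otherwise). CCL28, a chemokine of mucosal epithelia, fell from 1.57, 2.61 and 3.38 to -0.79, -1.02 and -1.13 (log2 difference -3.50, SE 0.755, adjusted p = 0.00616). Without day 13 replicate 1, day 13 replicate 2, day 24 replicate 2 or day 24 replicate 3, 3 members were called. Under normexp, the calls of SOCS3 and IL1B were lost (adjusted p = 0.104 and 0.307). Averaging replicates 1 and 2 cost the call of IL1B (adjusted p = 0.181). Members called numbered 2 with normexp and 3 with replicates 1 and 2 averaged, against 6.

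Few genes of the interferon response were called between these days, 2 of 35 (5.71%, against 19.9% over all named genes), both higher. Their list had a median of 0.27. No member was called without day 13 replicate 2, and 1 without day 13 replicate 3 or day 24 replicate 2. The antiviral GTPase MX2 rose from -2.13, -2.75 and -2.07 to 0.49, -0.0047 and 0.07 (log2 difference 2.50, SE 0.619, adjusted p = 0.0129), a call lost without day 13 replicate 2 (adjusted p = 0.0580). The ubiquitin-like modifier ISG15 rose by 2.28 (SE 0.616, adjusted p = 0.0196), a call lost without day 13 replicate 2, day 13 replicate 3 or day 24 replicate 2 (adjusted p up to 0.0925). The list's mean level was 1.09, 0.57 and 0.50 on day 13, 3.02, 1.68 and 2.20 on day 18 and 1.12, 1.19 and 1.04 on day 24, so the day 18 arrays stood above both of the days compared. Of 26 antigen presentation genes 2 were called, both higher: the chaperone CALR (log2 difference 1.29, SE 0.26, adjusted p = 0.00422) and the class I gene SLA-3 (1.12, adjusted p = 0.0369), which kept its call only without day 13 replicate 1 (up to 0.141 otherwise) and shares sequence with other class I genes. That list had 1 call without any array but day 13 replicate 1. After normexp, the calls of MX2, ISG15, CALR and SLA-3 were lost (adjusted p = 0.0825, 0.113, 0.0604 and 0.22). When replicates 1 and 2 were averaged, the calls of MX2, ISG15 and SLA-3 were lost (adjusted p = 0.0508, 0.0746 and 0.0915). The interferon response list had a count of calls of 0 with normexp and 0 with replicates 1 and 2 averaged, against 2. The antigen presentation list had a count of calls of 0 with normexp and 1 with replicates 1 and 2 averaged, against 2.

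Of 33 complement and coagulation genes 11 were called higher and none lower (33.3%, against 19.9% called over all named genes), with a median of 0.74. CFB, the protease of the alternative complement pathway, rose from -0.77, -0.85 and -1.22 to 2.30, 2.59 and 2.59 (log2 difference 3.44, SE 0.719, adjusted p = 0.0052), and FCN2, a ficolin that starts the lectin pathway, from 0.04, -0.12 and 0.20 to 3.36, 3.81 and 2.67 (log2 difference 3.24, SE 0.534, adjusted p = 0.00126). C7, a part of the membrane attack complex, rose by 2.93 (adjusted p = 0.0147), a call lost without day 13 replicate 2 (adjusted p = 0.0651). The days did not overlap for any of these 3. Also called, and named after their values were seen, were the complement regulator CD46 (2.53, adjusted p = 0.00126) and tissue factor, F3 (2.16, adjusted p = 0.0181). Without day 13 replicate 2 the list had 6 calls and without day 24 replicate 2 it had 7. With normexp, the call of C7 was lost (adjusted p = 0.0679). Once replicates 1 and 2 were averaged, the call of C7 was lost (adjusted p = 0.0868). Members called numbered 4 with normexp and 6 with replicates 1 and 2 averaged, against 11.

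Amino acid and polyamine metabolism was the list that fell, with a median of -0.81. Of 20 genes 9 were called lower and 1 higher (50%, against 19.9% over all named genes). PHGDH, the first enzyme of serine synthesis, had levels of 2.83, 3.45 and 2.91 on the day 13 arrays and -0.50, -0.97 and -0.21 on the day 24 arrays (log2 difference -3.62, SE 0.579, adjusted p = 0.00106). GATM, the first enzyme of creatine synthesis, fell from 2.22, 2.68 and 1.12 to -1.37, -1.27 and -1.37 (log2 difference -3.34, SE 0.514, adjusted p = 0.000825), and DDO, which oxidises D-aspartate, from 1.71, 2.73 and 2.51 to -0.69, -1.0 and -1.0 (log2 difference -3.21, SE 0.542, adjusted p = 0.00148). None of these 3 overlapped between the days, and each was about equally low on all 3 day 24 arrays. BHMT, which remethylates homocysteine with betaine, was dim on day 13 (-3.51, -3.77 and -3.48) and above background on no day 24 array, at least 3.04-fold lower (adjusted p = 0.000576, the lowest of all named genes that fell). With normexp its difference was 0.036, so this fall was not seen with that background correction. GNMT, which uses up S-adenosylmethionine by methylating glycine, fell by 3.00 (adjusted p = 0.0412) and kept its call only without day 13 replicate 3 (up to 0.149 otherwise). KMO, of the kynurenine pathway, fell by 2.50 (adjusted p = 0.0147) and lost its call without day 13 replicate 2 or day 24 replicate 3 (up to 0.0797). In polyamine metabolism, and named after their values were seen, ODC1, which makes putrescine, rose by 1.35 (adjusted p = 0.0074) and SAT1, which acetylates polyamines for breakdown, fell by 2.08 (adjusted p = 0.00117). Without day 13 replicate 2 or day 24 replicate 3 the list had 6 calls in place of 10. Under normexp, the calls of BHMT and GNMT were lost (adjusted p = 0.968 and 0.114). Averaging replicates 1 and 2 cost the calls of GNMT and KMO (adjusted p = 0.211 and 0.0755). Members called numbered 6 with normexp and 6 with replicates 1 and 2 averaged, against 10.

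Transporters and channels held some of the largest rises without moving as a list. Of 24 genes of calcium, water and ion handling 3 were called higher and 1 lower (16.7%, against 19.9% over all named genes). Their median difference was 0.26. AQP8, a water channel, had levels of -3.35, -2.90 and -3.42 on the day 13 arrays and 3.19, 3.89 and 4.96 on the day 24 arrays (log2 difference 7.24, SE 0.843, adjusted p = 0.000156), while AQP11, a water channel of intracellular membranes, fell from 1.60, 2.21 and 2.01 to -0.23, -0.28 and -0.16 (log2 difference -2.16, SE 0.548, adjusted p = 0.0145). PTHLH, the parathyroid hormone-like hormone, rose by 3.21 (adjusted p = 0.0191) and the chloride channel CFTR by 2.22 (adjusted p = 0.0159). AQP11 lost its call without day 13 replicate 2 or day 24 replicate 2 (up to 0.0586), and CFTR without day 13 replicate 1, day 24 replicate 2 or day 24 replicate 3 (up to 0.0829). PTHLH kept its call only without day 24 replicate 1 (up to 0.0854 otherwise). The list had 2 calls without day 13 replicate 1, day 13 replicate 2 or day 24 replicate 3, and 1 without day 24 replicate 2. After normexp, the call of CFTR was lost (adjusted p = 0.187). When replicates 1 and 2 were averaged, the calls of AQP11, PTHLH and CFTR were lost (adjusted p = 0.0733, 0.106 and 0.0691). Members called numbered 1 with replicates 1 and 2 averaged, against 4.

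Of 31 nutrient transporters and carriers 6 were called higher and 1 lower (22.6%, against 19.9% over all named genes), with a median of 0.22. SLC2A2, the glucose transporter GLUT2, was below background on all day 13 arrays and stood at -3.37, -1.52 and -1.82 on day 24, at least 10.2-fold higher (adjusted p = 0.000749). SLC7A3, a transporter of arginine and lysine, was likewise below background on day 13 and at least 5.27-fold higher (adjusted p = 0.00836). FABP3, a fatty acid-binding protein, rose from 2.03, 0.56 and -0.45 to 2.76, 3.55 and 3.94 (log2 difference 2.71, SE 0.717, adjusted p = 0.0178), and SLC3A1, the partner chain of a cystine transporter, by 2.39 (adjusted p = 0.0154). FABP3 kept its call only without day 13 replicate 1 or day 24 replicate 1 (up to 0.0893 otherwise), and SLC3A1 lost it without day 13 replicate 3, day 24 replicate 2 or day 24 replicate 3 (up to 0.0816). With slide as a block, FABP3 and SLC3A1 also lost their calls (adjusted p = 0.0674 and 0.0524). The list had 4 calls without day 13 replicate 2 and 3 without day 13 replicate 3, day 24 replicate 2 or day 24 replicate 3. With normexp, the calls of SLC2A2 and SLC7A3 were lost (adjusted p = 0.132 and 0.274). Once replicates 1 and 2 were averaged, the call of SLC7A3 was lost (adjusted p = 0.0503). Members called numbered 3 with normexp and 3 with replicates 1 and 2 averaged, against 7.

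Lipid and fuel metabolism was the longest list, with 18 of 63 genes called higher and 5 lower and a median of 0.32. Its share of calls was 36.5%, against 19.9% over all named genes. PNPLA3, a lipase and acyltransferase of lipid droplets, had levels of -2.65, -3.44 and -3.77 on the day 13 arrays and 0.70, 2.13 and 2.30 on the day 24 arrays (log2 difference 4.99, SE 0.814, adjusted p = 0.00119). APOC3, a lipoprotein that restrains lipolysis, rose by 2.78 (adjusted p = 0.00992), and G6PC, which releases free glucose, by 3.28 (adjusted p = 0.0368). On day 13, G6PC was above background on 1 of the 3 arrays. LPIN1, a phosphatidate phosphatase, fell from -1.78, -1.17 and -0.95 to -3.77, -4.03 and -3.96 (log2 difference -2.62, SE 0.52, adjusted p = 0.00391). Outside the list, the stearoyl-CoA desaturase SCD5 fell from 1.67, 2.82 and 3.20 to -0.25, -0.31 and -0.99 (log2 difference -3.08, SE 0.695, adjusted p = 0.0079), while its relative SCD, named after its values were seen, rose from 1.60, 1.42 and 1.18 to 2.77, 4.14 and 3.87 (log2 difference 2.19, SE 0.342, adjusted p = 0.000891). The days overlapped for neither desaturase. APOC3 lost its call without day 24 replicate 2 (adjusted p = 0.0575), and G6PC kept it only without day 13 replicate 1 (up to 0.157 otherwise). The list had 11 calls without day 13 replicate 2, 9 without day 13 replicate 3, 7 without day 24 replicate 2 and 7 without day 24 replicate 3. Under normexp, the calls of APOC3, G6PC and LPIN1 were lost (adjusted p = 0.148, 0.171 and 0.241). Averaging replicates 1 and 2 cost the call of G6PC (adjusted p = 0.118). Members called numbered 4 with normexp and 9 with replicates 1 and 2 averaged, against 23.

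Cell cycle genes were called higher in 8 of 23 cases and lower in 1 (39.1%, against 19.9% over all named genes), with a median of 0.62. CDK1, the kinase that drives entry into mitosis, rose from -2.47, -2.99 and -1.99 to 0.79, 1.43 and 1.85 (log2 difference 3.84, SE 0.908, adjusted p = 0.0103). CDC20, TOP2A and CCNB2, also of mitosis, had differences of 3.53, 3.51 and 3.15 (adjusted p = 0.0255, 0.0389 and 0.0476), and for all 4 genes the days did not overlap. On day 13, CDC20 was above background on 2 of the 3 arrays and CCNB2 on 1. CDK1 kept its call without any 1 of the 6 arrays. TOP2A and CCNB2 lost theirs without any 1 of them (up to 0.145 and 0.164), and CDC20 kept it only without day 13 replicate 1 or day 13 replicate 3 (up to 0.117 otherwise). The list had 5 calls without day 13 replicate 1, day 13 replicate 3 or day 24 replicate 1, 4 without day 13 replicate 2 or day 24 replicate 2 and 3 without day 24 replicate 3. After normexp, the calls of CDC20, TOP2A and CCNB2 were lost (adjusted p = 0.223, 0.149 and 0.385). When replicates 1 and 2 were averaged, the calls of CDK1, CDC20, TOP2A and CCNB2 were lost (adjusted p = 0.0747, 0.135, 0.182 and 0.188). Members called numbered 3 with normexp and 0 with replicates 1 and 2 averaged, against 9.

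Growth factor genes went both ways. Of 44 genes of growth factor, WNT and homeobox signals 6 were called higher and 4 lower (22.7%, against 19.9% over all named genes). Their median difference was 0.03. The median lay between -0.12 and 0.33 over the alternative settings. IGF1, insulin-like growth factor 1, had levels of 2.52, 2.83 and 2.45 on the day 13 arrays and 0.31, -0.43 and -1.32 on the day 24 arrays (log2 difference -3.08, SE 0.764, adjusted p = 0.0129), and its binding protein IGFBP3 rose from -0.81, -1.20 and -2.86 to 0.69, 1.81 and 1.52 (log2 difference 2.96, SE 0.775, adjusted p = 0.0168). EGF, epidermal growth factor, fell from -0.72, -1.66 and -2.92 to -4.42, -4.51 and -4.32 (log2 difference -2.65, SE 0.57, adjusted p = 0.00597), while HBEGF, another ligand of the same receptor, rose from -3.51, -3.84 and -3.76 to -1.57, -0.82 and -1.04 (log2 difference 2.56, SE 0.58, adjusted p = 0.00807). The days overlapped for none of these 4. The receptor EGFR itself, named after its values were seen, fell by 1.45 (adjusted p = 0.00347). IGF1 lost its call without day 13 replicate 2 or day 24 replicate 3 (up to 0.0688), and IGFBP3 without day 13 replicate 3, day 24 replicate 2 or day 24 replicate 3 (up to 0.0843). With alike libraries as a random block, IGF1 also lost its call (adjusted p = 0.125). The list had 6 calls without day 13 replicate 2 or day 24 replicate 2 and 5 without day 24 replicate 3. With normexp, the calls of EGF and HBEGF were lost (adjusted p = 0.441 and 0.112). Once replicates 1 and 2 were averaged, the calls of IGFBP3 and EGF were lost (adjusted p = 0.055 and 0.0632). Members called numbered 4 with normexp and 4 with replicates 1 and 2 averaged, against 10.

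Of 31 matrix and remodelling genes 5 were called higher and 2 lower (22.6%, against 19.9% over all named genes), with a median of 0.49. MMP1, an interstitial collagenase, was below background on day 13 and at least 5.99-fold higher at -3.56, -2.60 and -2.85 on day 24 (adjusted p = 0.000305). HPSE, heparanase, was also below background on day 13 and at least 7.94-fold higher (adjusted p = 0.000305). SERPINE2, an inhibitor of thrombin and plasminogen activators, rose from 0.38, 0.12 and 0.18 to 3.21, 3.68 and 4.24 (log2 difference 3.49, SE 0.478, adjusted p = 0.000422). CTGF, a connective tissue growth factor, fell from 5.31, 5.04 and 5.70 to 2.57, 2.77 and 2.01 (log2 difference -2.90, SE 0.768, adjusted p = 0.0178), a call lost without day 13 replicate 3 or day 24 replicate 3 (up to 0.0758). Of 28 adhesion molecules and mucins 6 were called higher, SPP1 among them, and 1 lower (25%), with a median of 0.74. MUC20, a membrane mucin, rose from -1.49, -1.65 and -1.72 to 2.62, 2.91 and 3.71 (log2 difference 4.70, SE 0.706, adjusted p = 0.000719). VCAM1 and SELE, which bind leukocytes on activated endothelium, rose by 2.39 and 2.70 (adjusted p = 0.0122 and 0.0259). VCAM1 lost its call without day 13 replicate 2 or day 24 replicate 2 (up to 0.0612), and SELE kept it only without day 13 replicate 1 or day 24 replicate 1 (up to 0.105 otherwise). Without day 13 replicate 2 the adhesion list had 4 calls. In the list of epithelial junctions and keratins none of 16 genes was called and 16 differences lay between -0.66 and 1.24, with CLDN12 (1.24, adjusted p = 0.0614) nearest to a call. Without day 24 replicate 1 the list had 1 call. Under normexp, the calls of MMP1, HPSE, CTGF, VCAM1 and SELE were lost (adjusted p = 0.224, 0.267, 0.0502, 0.0799 and 0.255). Averaging replicates 1 and 2 cost the calls of CTGF and SELE (adjusted p = 0.08 and 0.0548). The extracellular matrix and remodelling list had a count of calls of 4 with normexp, against 7. The adhesion molecules and mucins list had a count of calls of 2 with normexp, against 7.

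Vascular genes leaned upward but their calls were fragile. Of 27 genes of angiogenesis and vasoactive signals 5 were called higher and none lower, with a median of 0.76, a share of 18.5% against 19.9% over all named genes. VEGFA, the vascular endothelial growth factor, had levels of 0.49, -0.11 and -0.80 on the day 13 arrays and 1.13, 1.77 and 2.12 on the day 24 arrays (log2 difference 1.81, SE 0.533, adjusted p = 0.03). ANGPTL4 rose by 2.15, the beta-1 adrenoceptor ADRB1 by 1.97 and the endothelial coreceptor ENG by 1.23 (adjusted p = 0.0381, 0.0252 and 0.0449). VEGFA kept its call only without day 13 replicate 1 or day 24 replicate 1, ANGPTL4 only without day 13 replicate 3, ADRB1 only without day 24 replicate 3 and ENG only without day 13 replicate 1 (adjusted p up to 0.125, 0.144, 0.101 and 0.20 otherwise). The list had 1 call without day 13 replicate 2, day 13 replicate 3 or day 24 replicate 1, none without day 24 replicate 2 and 2 without day 24 replicate 3. After normexp, the calls of VEGFA, ANGPTL4, ADRB1 and ENG were lost (adjusted p = 0.0836, 0.116, 0.0512 and 0.236). When replicates 1 and 2 were averaged, the calls of VEGFA, ANGPTL4, ADRB1 and ENG were lost (adjusted p = 0.0774, 0.145, 0.135 and 0.0543). Members called numbered 0 with normexp and 0 with replicates 1 and 2 averaged, against 5.

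Of 16 immediate early and heat shock genes 3 were called higher and 1 lower (25%, against 19.9% over all named genes). Their median difference was 0.05. HMOX1, the inducible haem oxygenase, had levels of 2.65, 1.66 and 1.53 on the day 13 arrays and 5.99, 6.73 and 6.83 on the day 24 arrays (log2 difference 4.57, SE 0.505, adjusted p = 0.000119), and FOS, an early response transcription factor, rose by 2.35 (adjusted p = 0.0111). HSP90B1 rose by 0.92 (adjusted p = 0.0103) and HSP70.2 fell by 1.08 (adjusted p = 0.0482). Without day 13 replicate 2 HMOX1 was the 1 call left. FOS and HSP90B1 then had adjusted p of 0.0501 and 0.0585, and HSP70.2 lost its call without any 1 of the 6 arrays (up to 0.186). With normexp, the calls of HSP90B1 and HSP70.2 were lost (adjusted p = 0.272 and 0.11). Once replicates 1 and 2 were averaged, the calls of FOS, HSP90B1 and HSP70.2 were lost (adjusted p = 0.0839, 0.0707 and 0.193). Members called numbered 2 with normexp and 1 with replicates 1 and 2 averaged, against 4.

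Among the leading genes that belong to no list, DPP4, a cell surface dipeptidase, rose from 2.53, 1.56 and 0.04 to 6.12, 6.96 and 7.15 (log2 difference 5.37, SE 0.931, adjusted p = 0.00167). SCGN, a calcium-binding protein of secretory cells, shared the lowest adjusted p of the named genes with SPP1. It was below background on all day 13 arrays and stood at -3.05, -1.45 and -2.53 on day 24, at least 9.49-fold higher (adjusted p = 6.81e-05). Over the 21 arrays the named genes whose levels correlated best with those of SCGN were HMOX1 (Pearson r = 0.931), CBR1 (0.914) and ATP6V1A, a subunit of the vacuolar proton pump (0.913). All 3 were themselves called higher between these days, and the 21 arrays share their groups, so these values are descriptions. ASCL2, a transcription factor of trophoblast and of stem cells, and the unnamed locus LOC100521229 were below background on day 13 and at least 13.0-fold and 16.9-fold higher on day 24 (adjusted p = 0.00425 and 0.000556). Under normexp, the calls of SCGN, ASCL2 and LOC100521229 were lost (adjusted p = 0.0757, 0.134 and 0.114).

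Falls outside the lists included genes of secretory epithelium and of hormones. SST, somatostatin, an inhibitory peptide hormone, had levels of 3.33, 1.60 and 2.49 on the day 13 arrays and -1.49, -3.35 and -4.84 on the day 24 arrays (log2 difference -5.70, SE 1.85, adjusted p = 0.0453). MLPH, which tethers secretory vesicles and melanosomes to the actin motor, fell from 1.52, 2.75 and 3.20 to 0.32, -0.74 and -0.79 (log2 difference -2.90, SE 0.791, adjusted p = 0.0209), and SPDEF, a transcription factor of mucus-secreting epithelium, from 1.46, 1.59 and 2.96 to 0.09, -0.52 and -0.55 (log2 difference -2.33, SE 0.592, adjusted p = 0.0146). The days did not overlap for SST, MLPH or SPDEF. SST kept its call only without day 24 replicate 1 (up to 0.163 otherwise), MLPH only without day 13 replicate 1 or day 24 replicate 1 (up to 0.0839), and SPDEF lost it without day 13 replicate 3, day 24 replicate 2 or day 24 replicate 3 (up to 0.0752). The antibacterial lectin REG3G and the defensin-like SPAG11 were above background on no day 24 array, at least 2.30-fold and 2.22-fold lower (adjusted p = 0.0237 and 0.0203). REG3G kept its call only without day 13 replicate 1 or day 13 replicate 2 (up to 0.109 otherwise) and SPAG11 only without day 13 replicate 1 or day 24 replicate 3 (up to 0.0830), and with normexp the difference of SPAG11 turned to 0.27. The genes most like BHMT over the 21 arrays were AHCYL1 (r = 0.817), KLHDC3 (0.773) and DOK5 (0.745), with differences between these days of -1.09, -0.91 and -2.61 (adjusted p = 0.034, 0.0133 and 0.0537). AHCYL1 kept its call only without day 13 replicate 1 (up to 0.155 otherwise), KLHDC3 lost it without day 13 replicate 1 (adjusted p = 0.0569), and DOK5 was not called and had a difference of 0.23 with normexp. After normexp, the calls of MLPH, SPDEF, REG3G, SPAG11, AHCYL1 and KLHDC3 were lost (adjusted p = 0.0709, 0.0523, 0.983, 0.721, 0.178 and 0.087). When replicates 1 and 2 were averaged, the calls of SST, MLPH, REG3G, SPAG11, AHCYL1 and KLHDC3 were lost (adjusted p = 0.148, 0.0632, 0.0978, 0.114, 0.075 and 0.0992).

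**Figure D4:**
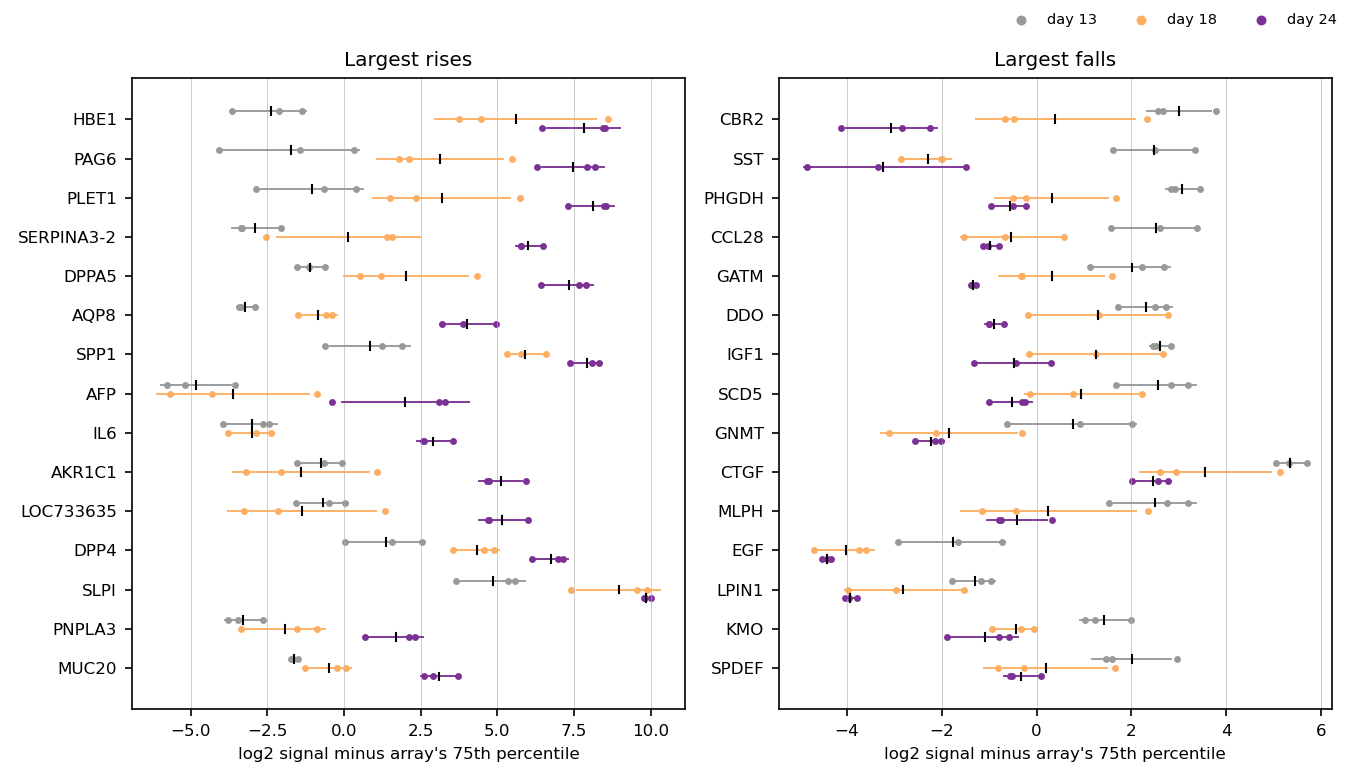
Levels (log2, relative to each array's 75th percentile) at attachment sites on day 13 (grey), day 18 (orange) and day 24 (purple) for the 15 largest rises (left) and the 15 largest falls (right) among called genes above background on all arrays of days 13 and 24. Points are arrays, black ticks the means of 3 and lines 1 SD to each side. In all 30 genes the day 13 and day 24 points lie apart, as they do for 399 of the 401 called genes. The day 18 points of HBE1, SPP1 and SLPI lie above day 13 and partly or wholly below day 24, while those of IL6, AKR1C1 and LOC733635 lie near or below day 13.

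The day 18 attachment sites, which entered neither group, showed where along the interval the genes stood. Over the 295 genes called higher, the median share of the change reached by the day 18 mean was 0.25, and 69 of them lay nearer to day 24. Over the 106 genes called lower the median share was 0.60, and 67 lay nearer to day 24. The same order held over all called probes, with 0.31 for the 2534 higher and 0.56 for the 2190 lower. These shares use the same day 13 and day 24 arrays as the calls, so they are descriptions without a test. They differed between the day 18 arrays: for the genes called higher they were 0.36, 0.38 and 0.08 in replicates 1, 2 and 3, and for those called lower 0.83, 0.70 and 0.23, with the share of the lower genes above that of the higher genes on each array. HBE1 stood at 3.74, 8.60 and 4.46 on day 18, PHGDH at -0.22, -0.50 and 1.68, and IL6 at -2.37, -3.79 and -2.85, below all of its day 24 values.

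Inter-site tissue of the same days was compared as well. Between its own day 13 and day 24 arrays 74 of 30091 probes were called (0.246%), and 12 of 2018 named genes (0.595%). All 12 were also called, in the same direction, at attachment sites, among them SPP1, with a difference of 5.28 at inter-sites. MMP1, above background on none of the day 13 inter-site arrays, and BHMT, above background on 1 of the 3 day 24 inter-site arrays, were also among the 12. The inter-site difference had the attachment-site sign for 386 of the 401 called genes, against 1494 of all 2018 genes. Some libraries of the 2 kinds of site were alike at the on-off probes, as given below. The shared calls and signs therefore do not come from animals known to be separate. The median inter-site difference was 0.82 over the genes called higher, where the attachment-site median was 1.72. Over those called lower it was -0.48, where the attachment-site median was -1.19. The genes had been chosen for their change at attachment sites, so a smaller value elsewhere is no result by itself. The conceptus genes were uneven at inter-sites: PAG6 stood at 2.17, 5.78 and -4.97 and HBE1 at 4.34, -0.19 and -2.43 on the 3 day 24 inter-site arrays. Replicate 3 of that group and replicate 1 of the day 13 inter-sites matched the day 24 and day 13 attachment-site libraries at no more than 34.9% of the on-off probes.

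**Figure D5:**
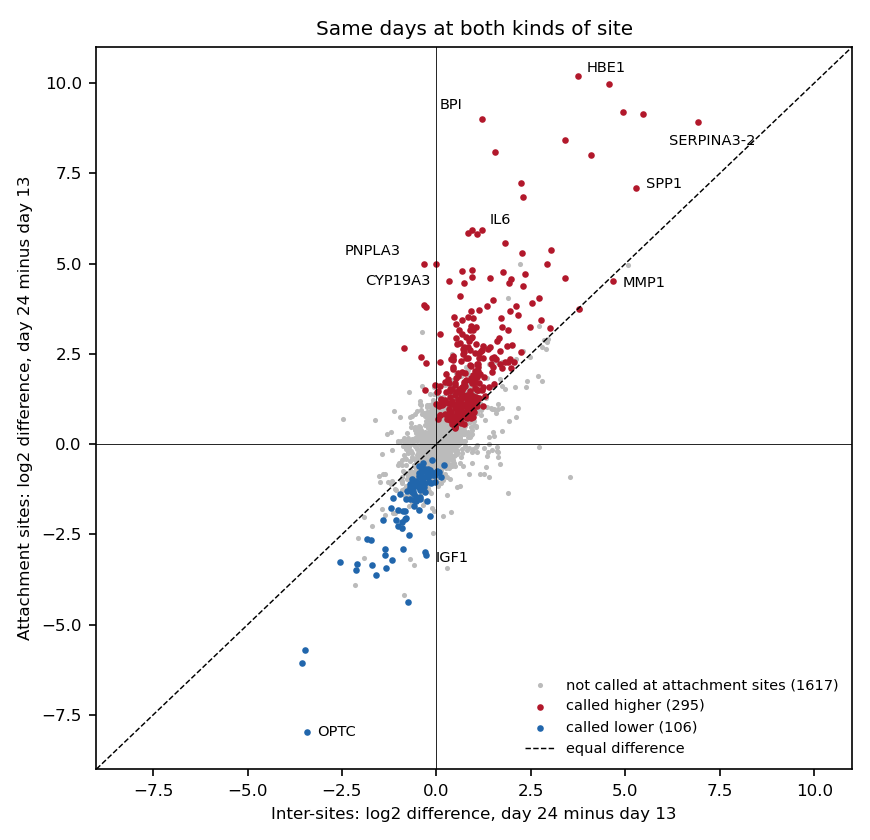
Log2 difference between day 24 and day 13 at inter-sites (x axis) and at attachment sites (y axis) for 2018 named genes, with the 295 called higher at attachment sites in red, the 106 called lower in blue and the rest in grey. The dashed line marks equal differences. Most coloured points have the same sign on both axes and lie further from 0 on the y axis than on the x axis.

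A test of the difference itself found few probes at which the 2 kinds of site parted. The change from day 13 to day 24 differed between attachment sites and inter-sites at 6 of 30091 probes (0.0199%), with 1459 at an unadjusted p of 0.05, and all 6 rose more at attachment sites. Among named genes CYP19A3 was the 1 called (0.0496% of 2018, adjusted p = 0.0220). Its probe was above background on all 3 attachment-site arrays of day 24 and on no other array of the 4 groups compared. Among these groups it passed the filter on dim probes only through the group where it was high. A greater rise there and this pattern of detection are therefore no support. The fitted difference between the changes of CYP19A3 rests on values below background and is no measure of its size. A probe of IL6 and a probe of BPI, neither the brightest of its gene, were also called (adjusted p = 0.0220 for both). The probe of BPI passed the filter in the same way as CYP19A3, as did some of the probes without a name. For the other genes described above, no difference between the kinds of site was established. Libraries of the 2 kinds of site were alike in pairs at the on-off probes. Attachment-site replicates 1 and 3 of day 13 matched inter-site replicates 2 and 3 at 100% each, and attachment-site replicates 1 and 2 of day 24 matched inter-site replicate 1 at 96.8 and 98.4%. With alike libraries as a random block the count was 38. It was 59 without inter-site replicate 2 of day 24, 14 without attachment-site replicate 1 of day 24, and 0 to 3 without attachment-site replicate 1, 2 or 3 of day 13, attachment-site replicate 3 of day 24, inter-site replicate 1 or 3 of day 13 or inter-site replicate 1 or 3 of day 24. Without both inter-site replicate 1 of day 13 and inter-site replicate 3 of day 24 it was 0, as it was with slide as a block.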

How the data were processed

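Total RNA of sow endometrium had been hybridised to 1-colour Agilent porcine arrays. Per the file headers, the authors' scanner software, Agilent Feature Extraction 10.7.3.1, gave a background-corrected processed intensity for each spot and the software's other flags, deposited as 0 or 1, for spots well above background and for outliers. The submitters' processing notes name Feature Extraction 10.7. The authors' deposited table of log2 values of the same arrays was used only as an alternative. The sources used here do not state its centring.

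Each array held 45220 spots. Control spots were left out, as were outlier spots, 198 in total over the 21 arrays. Spots of a probe were averaged, and each array's 75th percentile was subtracted from its log2 processed signals. Tests took in the 30091 of 43603 probes that exceeded background on the 3 arrays of any 1 of the 7 groups. One model with 7 group means was fitted to all 21 arrays with limma 3.58.1 in R 4.3.3. It shares 1 estimate of spread over the groups, and a probe was called at a Benjamini-Hochberg adjusted p below 0.05 over all tested probes. A gene was represented by its brightest probe. Of 5779 probes with a RefSeq accession, 5461 matched 1 symbol in the RefSeq table of assembly Sscrofa11.1, which named 2389 genes. The 3887 called probes without such a name were counted but not described. No nucleotide sequences were used here.

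Members, lists and the rule for naming genes were chosen with earlier results of these data known. The rule took, among called genes above background on all 6 arrays, the 15 largest rises and 15 largest falls, the 5 largest bounds in each direction, up to 4 called members of each list with the largest differences (or, where fewer than 2 were called, those of lowest p until 3 were named), the gene of lowest adjusted p in each direction with the 3 genes most correlated with it, and genes called between sites. Any other gene is named after its values were seen, and some genes are not reported here. On data simulated with each probe's mean over all arrays, 28, 72, 86 and 94% of probes changed by 1, 2, 3 and 4 on the log2 scale were recovered. There were 50 changed probes at each size, with 10 false calls among 30091. The simulated arrays varied independently, whereas real libraries alike at on-off probes had an estimated correlation of 0.467. The simulated rates therefore cannot be carried over to the real arrays. Same-numbered arrays of the days deviated from their group means with correlations of -0.20, 0.04 and -0.02, so the numbers were not taken to pair them. Alternatives covered the scaling, background correction, filter, slide, replicate number, the libraries alike at on-off probes, the arrays in the fit and each array left out. The number of arrays limits the precision.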

Additional observations from a re-analysis of the deposited data

Results flagged for a closer look

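The change from day 13 to day 24 differed between attachment sites and inter-sites at 6 probes by the interaction term of the limma model (12 arrays in the contrast). One probe, of the expressed sequence tag BF444388, had a fitted difference between the changes of 5.50 (adjusted p = 0.00890), from 4.23 at attachment sites and -1.26 at inter-sites. The other 5 all had an adjusted p of 0.0220. Those of named genes were IL6 (3.96, from 5.31 at attachment sites and 1.34 at inter-sites), BPI (6.67, from 6.90 and 0.23) and CYP19A3 (5.0, from 4.99 and -0.01). The probe TC502169 had a difference of 6.31 (5.92 and -0.39), and the unannotated probe A_72_P001526 one of 6.46 (6.33 and -0.13). CYP19A3 stood at -8.88, -6.82 and -7.49 on the day 24 inter-site arrays, with day 13 inter-site values of -7.63, -7.70 and -7.82, none of them above background, whereas all 3 attachment-site arrays of day 24 lay above them. All 6 probes were above background on the 3 attachment-site arrays of day 24. Those of BF444388, TC502169, BPI and CYP19A3 were above background on none of the day 13 attachment-site arrays, and on at most 1 array of each inter-site group, so their fitted values rest on signals below background and are neither sizes nor bounds. Among the groups compared, they passed the filter on dim probes only through the day 24 attachment sites, so the direction of their differences is no support. The probe of IL6 was above background on at least 2 arrays of each group, and so was A_72_P001526. Groups of 3 arrays were not searched for outlying samples.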

How the results depend on the processing

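The 4724 calls at attachment sites became 974 with normexp background correction (which moved the median of all probes by 0.27), 2368 with alike libraries as a random block, 1868 with replicates 1 and 2 averaged and 7255 with the 6 arrays alone, and leaving out 1 of the 6 arrays gave 2073 to 3746. Dropping the filter moved the median by 0.12. All 4724 kept their direction under each setting in which they were tested, except normexp (4330). The 6 probes that differed between sites became 3 with normexp, 0 among probes above background on all 12 arrays, 0 with slide as a block, 38 with alike libraries as a block, 0 to 59 without 1 array, and 0 without inter-site day 13 replicate 1 and day 24 replicate 3. The cause was not tested.

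Replicate numbers did not pair the arrays, and with the replicate number as a block 4996 probes were called, and 8 between sites.

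Signs turned for BHMT (0.036), SPAG11 (0.27), MYOCD (0.067) and DOK5 (0.23) with normexp, ACTA2 (-0.19) with the slide block and TPM1 (0.032) with alike libraries as a block. LOC396781 was at -0.49 with replicates averaged and -1.24 as the median over its probes. Without 1 array ACTA2 ranged from -0.33 to 1.45, LOC396781 from -0.43 to 2.10 and MYOCD from -1.29 to 0.36. Of 95 called genes chosen by the naming rule, 53 kept their call without any 1 of the 6 arrays. Dim probes limit the bounds given as at least N-fold.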

Other observations

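3 further groups of genes were drawn up after the values were seen, so their counts of rises follow from the choice and were not tested. None of their members was called lower. Over all named genes 14.6% were called higher and 5.25% lower. Of 26 genes of lysosomes, the organelles that digest proteins and lipids, 14 were called higher, with a median of 1.01 at attachment sites and 0.37 at inter-sites. PSAP, the precursor of the saposins, had a difference of 2.57, IFI30, a lysosomal thiol reductase, one of 2.52, and GRN, progranulin, one of 2.37. The lowest difference in the group was -0.44.

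Of 22 genes of protein folding and glycosylation in the endoplasmic reticulum, 13 were called higher, with a median of 0.76 at attachment sites and 0.66 at inter-sites. Among them were the cargo receptor TMED3 (2.28), the co-chaperone DNAJC3 (1.57), the chaperone CALR (1.29) and RPN2, a subunit of the oligosaccharyltransferase (1.07). Of 23 genes of the respiratory chain and ATP synthase, 8 were called higher, with medians of 0.52 and 0.51 at the 2 kinds of site, ATP5G1 at 1.17 among them. These medians stand beside 0.19 over all named genes at attachment sites.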
